A study of Mus musculus with 4 samples.

Results

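The miR-130 and miR-301 family was followed in mouse CD4+ T cells through 6 mature miRNAs of a deposited table of 1073. They were chosen by name, with their ASO and CRO means in this table already known: mmu-miR-130b-3p, mmu-miR-301a-3p, mmu-miR-301b-3p, mmu-miR-130a-3p, mmu-miR-130b-5p and mmu-miR-301a-5p. All 6 were found. The rule used the contrast of ASO with CRO, so that contrast is described below and no test of it supports a finding.

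The cells were naive CD4+ T cells from the spleen of wild type mice, transfected with ASO or with its control CRO and then activated with antibodies to CD3 and CD28 for 48 h. Each group had 2 samples of small RNA. The labels expand neither ASO nor CRO and name no target, and no label ties a sample to its own mouse or culture. Any p-value is therefore set against differences among these samples that may be technical.

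miRNAs of this family are cut from hairpins whose 3p arm starts with a shared sequence. Bases 2 to 8 of a mature miRNA, its seed, pair with target mRNAs, so miRNAs with 1 seed can act on overlapping targets. In mouse CD4+ T cells miR-301a has been described as favouring Th17 cells, the helper cells that make IL-17, by lowering Pias3, an inhibitor of STAT3.

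The mature sequences show what the members share. RefSeq (GRCm38.p6) gave sequences for 5 of the 6 members, and mmu-miR-301b-3p is the other. In the lines below, written 5′ to 3′, the capitals mark the seed, and the 3p members come first because they carry the family seed.
mmu-miR-130b-3p: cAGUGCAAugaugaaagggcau
mmu-miR-301a-3p: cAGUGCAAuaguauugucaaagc
mmu-miR-130a-3p: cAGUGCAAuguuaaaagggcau
mmu-miR-130b-5p: aCUCUUUCccuguugcacuacu
mmu-miR-301a-5p: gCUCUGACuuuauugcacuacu

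The 3 printed 3p members had the same seed, AGUGCAA, whose complement in a target reads UUGCACU. Over their whole length, miR-130a-3p and miR-130b-3p were identical at 20 of 22 positions, and counted from the 5′ end of miR-130a-3p they differed by U11A and A13G. Reads of these 2 miRNAs are told apart by those bases alone, and how the authors assigned ambiguous reads is not given in the sources used here. miR-301a-3p matched miR-130b-3p at 11 of 22 positions, and the shared run from the 5′ end was 9 bases long. The 5p members carried other seeds, CUCUUUC in miR-130b-5p and CUCUGAC in miR-301a-5p, and ended in the same 10 bases. Of 1679 mature miRNAs in the RefSeq table, 4 others had the 3p seed, miR-6341, miR-721, miR-6389 and miR-130c. None of these 4 had a row in the table analysed here.

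The members come from hairpins on 3 chromosomes. Coordinates are those of GRCm38.p6 (RefSeq), while the submitters' processing notes name mm9 as the authors' build. The hairpin of miR-130b lies at chr16:17124061-17124142 on the minus strand and that of miR-301b at chr16:17124400-17124496 on the same strand, 257 bases apart. Both lie in introns of 2610318N02Rik in the GENCODE annotation. The hairpin of miR-301a, chr11:87113004-87113089 on the plus strand, lies in an intron of Ska2, which encodes a protein of the spindle and kinetochore. The hairpin of miR-130a, chr2:84741115-84741178 on the minus strand, overlapped no other annotated gene. The hairpins of miR-130b and miR-301a are shown with both arms in capitals, because both arms of each were measured and are compared below.
Mir130b: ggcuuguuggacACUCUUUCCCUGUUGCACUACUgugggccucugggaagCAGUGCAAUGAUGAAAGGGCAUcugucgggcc
Mir301: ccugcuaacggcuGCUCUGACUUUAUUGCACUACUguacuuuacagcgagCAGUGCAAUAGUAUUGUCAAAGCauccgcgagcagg

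The table gives the authors' group means of normalized counts, that is, counts divided by a size factor of each library. Counts of the 2 libraries behind each mean were decoded from those means, which was possible for every member. Nothing links a decoded library to a numbered sample, so those of each group are called a and b. Library a is the one with the larger size factor in its group. The letters pair no ASO library with a CRO library. Without miR-155-5p, whose ASO counts could not be split between libraries, the library totals were 8668774 and 8930660 counts for ASO and 4949804 and 2812572 in CRO. The CRO libraries were thus the shallower ones, and CRO library b the shallowest. The summed level of 5 T cell miRNAs (both arms of miR-142a, miR-150-5p, miR-181a-5p and miR-342-3p) lay between 1114210 and 1202290 normalized counts in ASO and between 1052850 and 1128890 in CRO. By mean over the 4 libraries the arms of miR-142a were the most counted of these 5, and whether other blood cells hold them too was not tested. Lists for other cell types were lower by far. Each list holds different miRNAs, so the gap between their sums does not measure how pure the T cells were. The sums were 1419 to 1655 in ASO and 2429 to 2481 in CRO for 4 erythroid miRNAs, and 5647 to 5705 against 6264 to 7281 for 3 myeloid ones. The 5 epithelial miRNAs summed to 4315 to 4459 in ASO and 5290 to 5296 in CRO. The 5 endothelial and stromal miRNAs summed to 1728 to 2374 against 1441 to 1993. The 3 myeloid miRNAs were miR-223-3p, miR-223-5p and miR-199a-3p, at log2 ratios of ASO over CRO of -0.25, -0.70 and -0.48. By mean over the 4 libraries miR-223-3p had 6135 normalized counts, miR-199a-3p 50.2 and miR-223-5p 39.3, so the myeloid sum is mostly miR-223-3p. All 4 erythroid and all 3 myeloid miRNAs had a log2 ratio of ASO over CRO below 0, with medians of -0.64 and -0.48. Among markers with a mean of at least 10 over the 4 libraries, so had all 4 epithelial ones (median -0.18). The same held for 3 of 6 T cell miRNAs, miR-155-5p included (median -0.085), and for 1 of 3 endothelial and stromal ones (median 0.24). Of the 482 miRNAs that reached this mean, 53.1% had a ratio above 0. None of the markers passed the authors' adjusted p or was at 0 in all libraries, and the part of other cells in the results was not tested. In such bulk samples fewer cells of a type and less RNA per cell cannot be told apart.

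The family was expressed at a moderate level. By mean over the 4 libraries miR-130b-3p ranked 98 of 1073 miRNAs (1950 normalized counts), miR-301a-3p 114 (1304), miR-130b-5p 125 (955), miR-301b-3p 144 (645), miR-301a-5p 232 (159) and miR-130a-3p 274 (99.9). This is an order of reads: how well each miRNA was ligated and amplified was not measured. All 6 passed the minimum base mean of 10 used below, base mean being the mean over all libraries.

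Of the 3p members, the most counted was mmu-miR-130b-3p, with 2163 and 2234 normalized counts in ASO libraries a and b and 1714 and 1689 in CRO libraries a and b. Both ASO values were above both CRO values, and the libraries of each group lay close together. The authors' means of 2198 for ASO and 1701 for CRO correspond to a log2 ratio of ASO over CRO of 0.37, the smallest among the 3p members.

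mmu-miR-301a-3p, the member tied to Th17 cells, had 1432 and 1999 normalized counts in ASO and 1187 and 600.0 in CRO. The groups did not overlap, but CRO library b stood well below CRO library a. The authors' means, 1715 in ASO and 893 in CRO, gave the largest ratio of the family, 1.92-fold or 0.94 on the log2 scale. The log2 gap between the 2 CRO libraries was 0.98, as large as the difference between the groups. A gap between CRO libraries of at least this size was found for 24 of the 272 miRNAs whose base mean reached 100, or 8.82%. The median gap over those miRNAs was 0.39 in CRO and 0.23 in ASO.

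mmu-miR-301b-3p, which shares its locus with miR-130b, had 726 and 866 normalized counts in ASO and 547 and 440 in CRO. Again both ASO values were the higher ones. The authors' means were 796 and 494, a log2 ratio of 0.69.

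mmu-miR-130a-3p, the least counted member, had 114 and 141 normalized counts in ASO and 81.9 and 62.9 in CRO. Here too the groups did not overlap. These values rest on 186 and 200 counts in ASO and on 64 and 35 in CRO. The log2 ratio of the authors' means was 0.82.

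The 5p members differed from each other. mmu-miR-301a-5p had 200.5 and 194 normalized counts in ASO and 107 and 135 in CRO, so the groups lay apart as for its 3p arm. Its log2 ratio was 0.70. mmu-miR-130b-5p had 1120 and 795 in ASO and 733 and 1171 in CRO, so the groups overlapped and each held a high and a low library. Its authors' means were 957 and 952, a log2 ratio of 0.0078. Its sign turned, to -0.0070 when libraries were scaled by their totals, to -0.22 without ASO library a and to -0.31 without CRO library a.

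The remaining arms of these hairpins are no members. miR-301b-5p had 97 and 68 counts in ASO and 34 and 13 in CRO, with authors' means of 53.7 and 33.4 normalized counts and a log2 ratio of 0.69. miR-130a-5p had 2 counts in each ASO library and 0 and 3 in the CRO libraries, too few for a ratio.

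**Figure D1:**
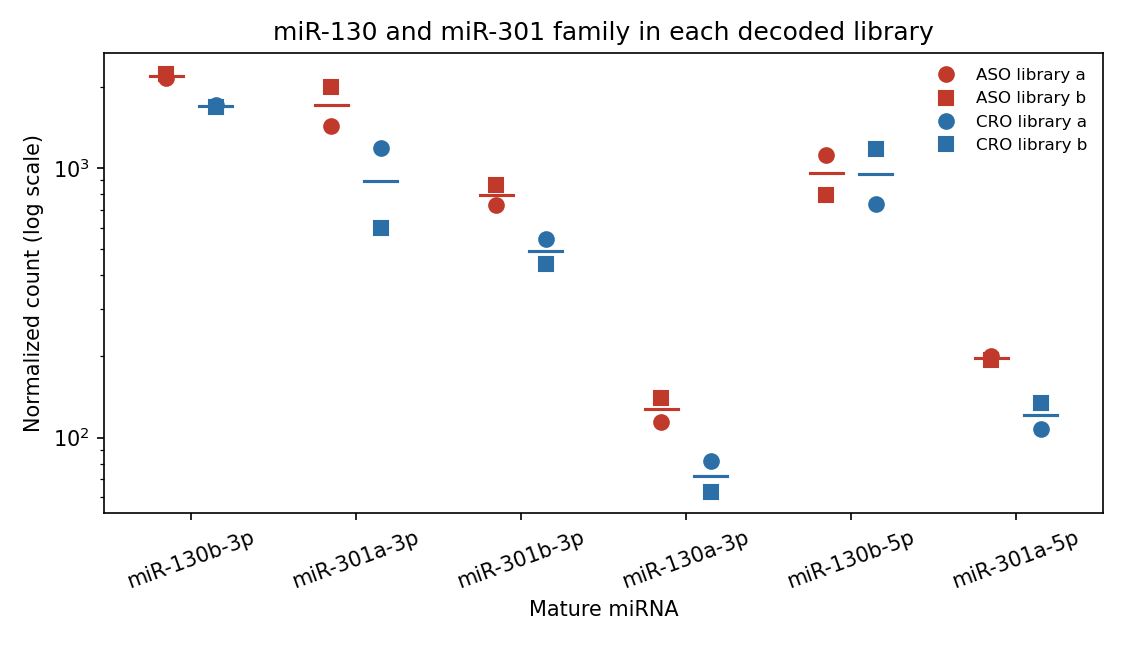
Normalized counts (log scale) of the 6 members in each decoded library, with ASO in red, CRO in blue, circles for library a, squares for library b and bars for the group means. For 5 members both ASO points lie above both CRO points, while those of miR-130b-5p interleave, and CRO library b of miR-301a-3p lies at 600.0 against 1187 in CRO library a.

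Counted together, 5 of the 6 members had both ASO libraries above both CRO libraries. Over the 481 decoded miRNAs whose base mean reached 10 this held for 111, or 23.1%. The median log2 ratio of the 6 members was 0.70, beside 0.041 over the 482 miRNAs that reached this base mean, of which 53.1% had a ratio above 0. miR-301a-3p had a higher ratio than 97.3% of them, miR-130a-3p than 95.9%, miR-301a-5p than 92.5%, miR-301b-3p than 92.3%, miR-130b-3p than 78.6% and miR-130b-5p than 47.7%. Because the members were chosen with these ratios known, nothing is read from their place among all miRNAs.

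By the authors' deposited table (DESeq), 0 of the 6 members passed 0.05 after adjustment, and each is listed with an adjusted p of 1. Among all 1073 miRNAs 1.21% passed. At an unadjusted p under 0.05 the authors' table also held 0 of the 6 members, beside 2.8% of all 1073 miRNAs. Only 482 of those 1073 reached a base mean of 10, as all 6 members did, so these shares are over unlike sets. The members' p in the authors' table (DESeq) ran from 0.069 for miR-301b-3p and 0.092 for miR-301a-3p to 0.84 for miR-130b-5p. A limma fit of the decoded libraries, on log2(normalized count + 1) over 481 miRNAs, gave log2 ratios of 1.0 ± 0.36 (SE) for miR-301a-3p and 0.81 ± 0.30 for miR-130a-3p. It gave 0.71 ± 0.26 for miR-301a-5p, 0.69 ± 0.25 for miR-301b-3p, 0.37 ± 0.22 for miR-130b-3p and 0.026 ± 0.31 for miR-130b-5p. Shares given for limma are of the 481 miRNAs fitted. limma's Benjamini-Hochberg adjusted p passed 0.05 for 0 of the 6 members and for 3.12% of those miRNAs, and the members' adjusted p lay between 0.29 and 0.98. Its unadjusted p was under 0.05 with a higher ASO level for 4 of the 6 members (all but the pair from the miR-130b hairpin) and for 5.61% of all miRNAs. Without CRO library a, 3 members passed the adjusted p in limma, miR-301a-3p at a log2 ratio of 1.49 (adjusted p = 1.7e-05), miR-130a-3p at 1.0 (adjusted p = 0.019) and miR-301b-3p at 0.85 (adjusted p = 0.048). That fit takes its spread from the ASO libraries alone and called 13.1% of all miRNAs in either direction and 6.44% as higher in ASO. Without any other single library none did, and miR-301a-3p was at 0.51 without CRO library b.

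**Figure D2:**
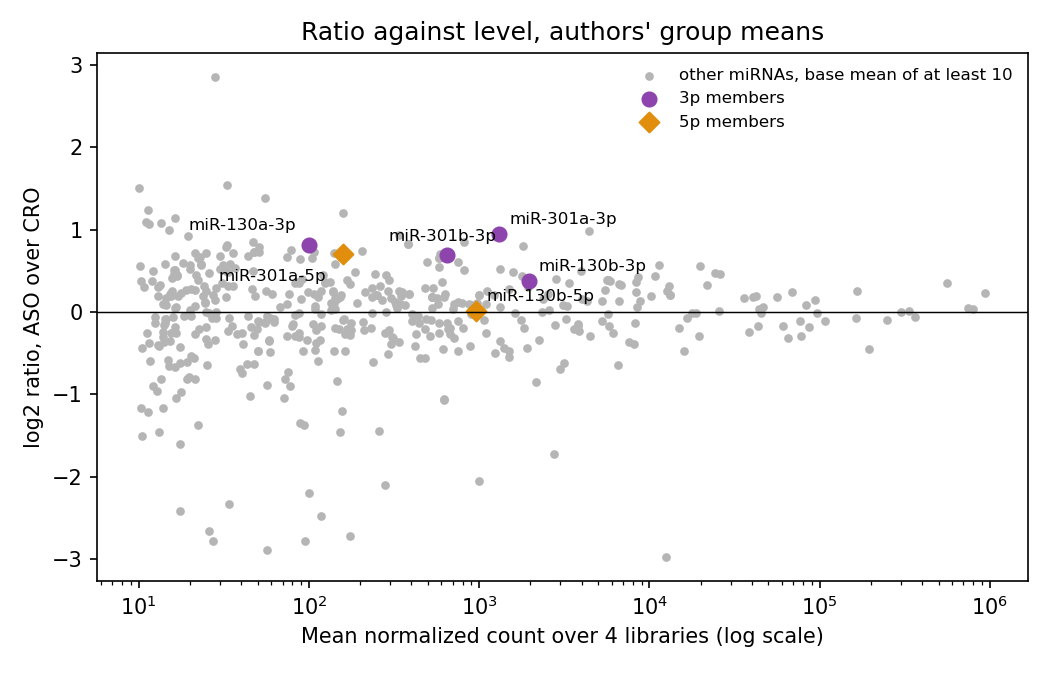
log2 ratio of ASO over CRO (vertical axis, authors' group means) against the mean normalized count over 4 libraries (horizontal axis, log scale) for miRNAs whose base mean reached 10, with the 3p members in purple and the 5p members in orange. The members lie between 0.0078 for miR-130b-5p and 0.94 for miR-301a-3p.

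The 3p members were then summed as the pool of family miRNAs that a target with the seed site could meet, with miR-301b-3p counted in by its family name. The pool held 4436 and 5239 normalized counts in ASO, against 3530 and 2792 in CRO. Both ASO libraries were above both CRO libraries. The mean log2 difference of ASO over CRO was 0.62, beside an SD within groups of 0.21 (n = 2 per group). As a share of all counts but those of miR-155-5p, the pool made up 0.0832% (95% exact Clopper-Pearson interval 0.0813 to 0.0852) of ASO library a and 0.0834% (0.0815 to 0.0853) of ASO library b. In CRO it made up 0.0558% (0.0537 to 0.0579) of library a and 0.0553% (0.0525 to 0.0581) of library b. On this scale the libraries of a group lay within their counting error and the groups lay apart. The intervals cover counting error only, since no source used here names molecular identifiers. With 2 libraries per group an exact two-sided permutation test cannot go below p = 0.333, so none was made.

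The makeup of the pool differed between libraries of the same group. miR-130b-3p made up 48.8% (95% exact interval 47.6 to 49.9) of the pool in ASO library a and 42.6% (41.5 to 43.8) in ASO library b, and 48.6% (46.7 to 50.4) in CRO library a and 60.5% (58.0 to 62.9) in CRO library b. miR-301a-3p made up 32.3% (31.2 to 33.4) and 38.2% (37.0 to 39.3) in ASO, and 33.6% (31.9 to 35.4) and 21.5% (19.5 to 23.6) in CRO. For both members the a and b libraries differed beyond counting error in ASO as well as in CRO. The shares in ASO library a and CRO library a, which are not paired, lay close together. miR-301b-3p kept to 16.4% and 16.5% in ASO and 15.5% and 15.8% in CRO. miR-130a-3p kept to 2.58% and 2.68% against 2.32% and 2.25%.

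**Figure D3:**
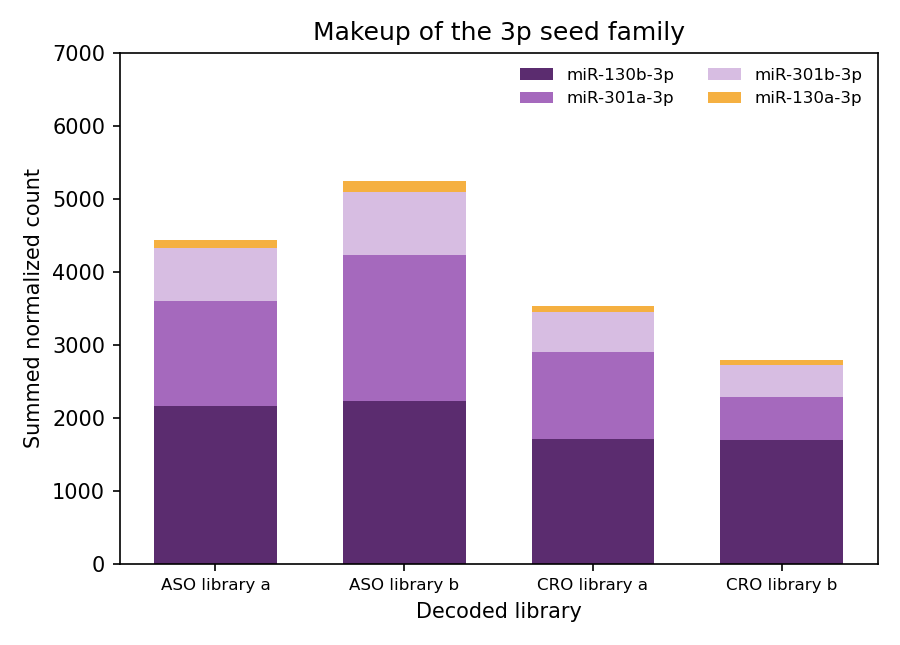
Summed normalized counts of the 3p members in each decoded library, stacked by member from miR-130b-3p at the bottom. The ASO bars reach 4436 and 5239 and the CRO bars 3530 and 2792, and the miR-301a-3p layer is thinnest in CRO library b.

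Whether members shifted together with miR-301a-3p was read from ratios within a library, which do not depend on scaling. miR-130b-3p over miR-301a-3p was 1.51 and 1.12 in ASO and 1.44 and 2.81 in CRO. The value of CRO library a fell inside the ASO range, and CRO library b alone was higher. On the log2 scale the ratio was lower by 0.63 in ASO (difference -0.63), beside an SD within groups of 0.53. miR-301b-3p over miR-301a-3p was 0.507 and 0.433 in ASO and 0.461 and 0.734 in CRO, a log2 difference of -0.31. miR-130a-3p over miR-301a-3p was 0.0799 and 0.0704 against 0.0690 and 0.105, a log2 difference of -0.18. In each of these ratios the groups overlapped, with CRO library b highest. miR-130b-5p departed most, at 0.782 and 0.398 in ASO and 0.617 and 1.95 in CRO, a log2 difference of -0.98.

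Within the locus on chromosome 16, miR-130b-3p and miR-301b-3p rest on neighbouring hairpins of 1 strand. The ratio of miR-130b-3p to miR-301b-3p was 2.98 and 2.58 in ASO, against 3.13 and 3.84 in CRO. The groups did not overlap, though ASO library a and CRO library a lay close. The log2 difference was -0.32, beside an SD within groups of 0.18 (n = 2 per group). In every other ratio within a library taken here the groups overlapped. How often ratios of other miRNA pairs separate the groups was not counted, so the separation is a description and no shift within the locus is read from it. For the 5p arms of the same hairpins the ratio of miR-130b-5p to miR-301b-5p was 18.8 and 16.6 in ASO and 16.9 and 50.2 in CRO. These values overlapped, and that of CRO library b rests on 13 counts of miR-301b-5p.

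Dicer cuts both arms from 1 hairpin, and usually 1 of them is retained by Argonaute, the protein that carries miRNAs to targets. The ratio of 3p to 5p counts was therefore taken for each hairpin. For miR-130b it was 1.93 and 2.81 in ASO and 2.34 and 1.44 in CRO. For miR-301a it was 7.14 and 10.3 in ASO and 11.0 and 4.45 in CRO. In both hairpins the groups overlapped, and CRO library b had the lowest value. For miR-301b it was 12.2 and 18.1 in ASO and 12.6 and 18.8 in CRO, where the b libraries were the higher ones in both groups. The 3p arm was thus the more counted one in every library for these 3 hairpins.

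The log2 difference of ASO over CRO in the arm ratio was 0.34 for miR-130b, 0.29 for miR-301a and -0.053 for miR-301b. The SD within groups was 0.44, 0.71 and 0.41, larger than each difference, and the value of miR-301a turned to -0.37 without CRO library b. Over 78 hairpins whose arms both reached a base mean of 50 the median of this difference was -0.040, with quartiles of -0.25 and 0.19. The difference between the CRO libraries (a minus b) was 0.70 for miR-130b and 1.31 for miR-301a, beside a median of 0.021 and quartiles of -0.33 and 0.57. Of the 78 hairpins, 15 (miR-130b among them) had a CRO difference of at least 0.70, and 3 (miR-301a among them) one of at least 1.31. Between the ASO libraries (b minus a), 3 reached the 0.54 of miR-130b and 4 the 0.53 of miR-301a. For ASO over CRO, 4 reached the 0.34 of miR-130b and 9 the 0.29 of miR-301a. Each count includes the hairpin named and takes 1 direction only, in an order of libraries that made both members positive. In the other direction the differences reached -1.99 for ASO over CRO, -2.15 between the CRO libraries and -0.87 between the ASO libraries. Hairpins with a negative difference of like size were not counted, so the counts do not rank the hairpins by size of difference. These places are a description, since the members were chosen with their group means known.

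**Figure D4:**
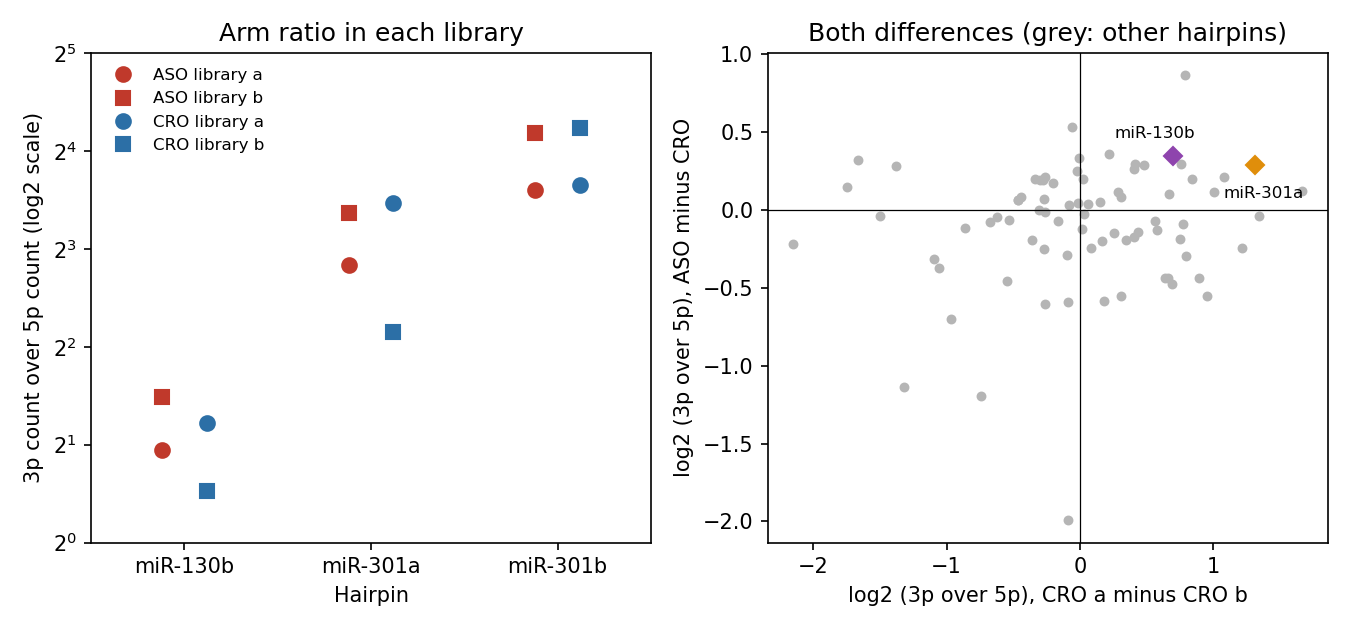
Left, counts of the 3p arm over the 5p arm (log2 scale) for 3 hairpins in each decoded library, with colours and symbols for group and library. Right, for 78 hairpins, the log2 difference of that ratio between ASO and CRO against its difference between the CRO libraries. miR-130b lies at 0.70 and 0.34 and miR-301a at 1.31 and 0.29 on the horizontal and vertical axes.

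The miRNAs whose levels over the 4 libraries lay nearest to those of miR-301a-3p were sought among 271 others whose base mean reached 100, by the root mean square difference of log2(normalized count + 1) after each one's own mean was subtracted. The nearest was miR-147-3p (0.13), with 118 and 147 normalized counts in ASO and 105 and 55.7 in CRO. The next were miR-669b-5p (0.26), with 163 and 186 against 123 and 89.8, and miR-466h-5p (0.26), with 449 and 443 against 269 and 198. All 3 had their lowest value in CRO library b, as miR-301a-3p did, which follows from how they were chosen. Of the family, miR-301b-3p came 5th of the 271, at 0.29, miR-130b-3p ranked 69 (0.49), miR-301a-5p 89 (0.52) and miR-130b-5p 220 (0.84). The base mean of miR-130a-3p was just under the minimum. The likeness covers 4 libraries and is a description.

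Other miRNAs linked to Th17 cells or to T helper differentiation were taken from a list of 27, of which 25 were in the table and all 25 reached a base mean of 10. None passed the authors' adjusted p in either direction, and 2 had an unadjusted p under 0.05 in the authors' deposited table. Among all 1073 miRNAs 2.8% had such a p. Only 482 of those 1073 reached a base mean of 10, as all 25 of the list did, so these shares are over unlike sets. Of the 25, 16 had a log2 ratio above 0, beside 53.1% of the miRNAs that reached a base mean of 10, and the medians were 0.18 and 0.041. The 2 miRNAs with such a p are given because of it. miR-96-5p, of the miR-183 cluster, had 5556 and 6179 normalized counts in ASO and 3301 and 2651 in CRO. Its log2 ratio was 0.98 (p = 0.0056, DESeq, adjusted p = 0.33 in the authors' deposited table). miR-18a-5p, of the miR-17-92 cluster, had 2100 and 2491 against 1404 and 1236, a log2 ratio of 0.80 (p = 0.025, DESeq, adjusted p = 1 in the authors' deposited table). The 3 most counted miRNAs of the list had log2 ratios of 0.23 for miR-155-5p, 0.048 for miR-21a-5p and -0.060 for let-7f-5p. The list does not hold the family, and its miRNAs were listed with earlier results of these data known.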

How the data were processed

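Small RNA libraries were made from Trizol-extracted RNA with a TruSeq small RNA kit, per the labels' protocols. The submitters' processing notes name DESeq and mm9. No source used here gives the aligner, miRNA annotation or trimming.

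Per the file headers, the authors deposited normalized count means (base means, a signal scale) per group, a fold ratio and its log2 (both CRO over ASO, turned here to ASO over CRO), and p-values. The members and lists were chosen with earlier results of these data known.

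A group mean averages 2 whole counts after division by the size factors of their libraries, and is printed to 15 significant digits. All miRNAs were decoded to within 2 rounding units, but miR-155-5p in ASO had 4 solutions and was left out of the fits. Size factors recomputed from the counts matched the decoded ones (1.626, 1.422, 0.7819 and 0.5567). On simulated means both counts of 1072 of 1072 miRNAs were recovered. On counts simulated at a dispersion of 0.05, limma 3.58.1 in R 4.3.3 (trend, robust) recovered 193 of 200 miRNAs changed 4-fold among 481, with 7 false calls. Changes as small as those of the members, at most 1.92-fold by the authors' means, were not simulated. The recovery therefore does not tell how often such changes would be called. The naming rule took the members, their other arms, the 3 miRNAs most like miR-301a-3p, and, of the Th17 list, the 3 most counted and those with an authors' p under 0.05. Python 3.11.15 was used for the rest.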

Additional observations from a re-analysis of the deposited data

How the results depend on the processing

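The main limits are 2 libraries per group, a CRO library b of 2812572 counts, and 35 to 200 counts behind each value of miR-130a-3p. No paired analysis was possible because libraries decoded from a group mean cannot be matched to numbered samples. Over 66 alternative values of the 6 log2 ratios (other pseudocounts of 0.5 and 10, filters, scalings and single libraries left out), 60 stayed on the same side of 0 and of the threshold and 3 newly passed, all without CRO library a. The 3 that changed sign were all of miR-130b-5p, at -0.0070 with library totals, -0.22 without ASO library a and -0.31 without CRO library a, with its values between -0.31 and 0.36 when a library was left out. The number of members past the adjusted p was 0 to 3 when a library was left out, taking the remaining single library to vary as the other group does. That fit, without CRO library a, called 31 miRNAs higher and 32 lower in all, against 1 and 14 with all libraries. The log2 difference of the summed 3p members ran from 0.45 to 0.79 with a library left out. That of the miR-301a arm ratio turned to -0.37 without CRO library b and rose to 0.95 without CRO library a, and that of the miR-130b arm ratio ran from -0.0052 without CRO library b to 0.69 without CRO library a. miR-130b-3p over miR-301b-3p ran from -0.47 to -0.18, and miR-130b-3p over miR-301a-3p from -1.12 without CRO library a to -0.15 without CRO library b. Of the miRNAs with a RefSeq mature sequence, none with the family seed other than the members had a row, so the pool with such miRNAs added was not run. Rows with no RefSeq sequence were not searched.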
